A study of Mus musculus with 8 samples.

Results

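Hormone and granule genes of pancreatic islets and other endocrine cells were followed through RNA sequencing of mouse bile duct and pancreatic duct. They were taken by symbol from a table of 31228 genes. All 10 genes were found: Ins1, Ins2, Gcg, Sst, Ppy, Iapp, Pyy, Chga, Chgb and Neurod1. The 8 libraries came from C57BL/6 mice and held 4 groups: extrahepatic bile duct epithelium (1 library), pancreatic duct epithelium (1 library), bile duct organoids (3) and pancreatic duct organoids (3). Age and sex of the mice are not given in the sources used here, and no allele or agent set the mice apart. For the epithelia, ducts were dissected, minced, digested with collagenase IV and placed straight in Trizol, and the labels name no sorting of cells. Organoids are small bodies of epithelial cells grown in a gel, here Matrigel. All 6 organoids shared a medium with B27, N-acetylcysteine, EGF, R-Spondin-1, Noggin, FGF10 and 10 mM nicotinamide. Wnt3A conditioned medium and Y27632, a kinase inhibitor, were present until luminal organoids had formed, and the cultures were taken at passages 3 to 4. Nothing in the labels says that organoids of a group came from separate animals, so p-values measure only the spread between these samples, which may be technical. The study set out to compare the ducts with each other, as epithelium and as organoid, and its design names no control sample.

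Pancreatic islets are small clusters of hormone cells among the exocrine tissue of the pancreas. Beta cells make insulin, which in mice comes from a pair of genes, and release amylin with it. Alpha cells make glucagon, delta cells somatostatin, and PP cells pancreatic polypeptide. Hormone cells of the gut wall share several of these products, and islets, gut endocrine cells and sympathetic neurons all store peptides in dense core granules with chromogranins. Islets are not part of the duct wall, but in the mouse pancreas they lie close to ducts.

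The promoters of 4 of the genes are shown because they carry short elements known from islet and neuroendocrine genes. Sequences are the 250 bases before the RefSeq start (build GRCm38.p6), read 5′ to 3′ on the gene's strand, and 9 of the 10 genes had an entry. Ins2 had none, so its promoter was not searched. Both strands were searched for 6 motifs, and capitals mark matches to 4 of them. The general E-box CANNTG and the homeodomain core TAAT are left in lower case, since most RefSeq windows hold each of them. In Ins1 the capitals are GCCATCTG, the letters of the insulin E-box, a site type bound by Neurod1 with its E-protein partners. In Sst they are CTAATG, the letters of an insulin A-box, a site type for homeodomain factors such as Pdx1, and TGACGTCA, the full cyclic AMP response element. In Chgb they are the full element again, and in Chga its first letters, TGACG, which the full element also contains.
Ins1 promoter: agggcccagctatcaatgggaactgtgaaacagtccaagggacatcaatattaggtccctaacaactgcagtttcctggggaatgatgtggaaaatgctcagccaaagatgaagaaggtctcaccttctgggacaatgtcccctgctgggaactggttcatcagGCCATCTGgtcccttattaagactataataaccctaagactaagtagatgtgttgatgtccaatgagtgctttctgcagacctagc
Sst promoter: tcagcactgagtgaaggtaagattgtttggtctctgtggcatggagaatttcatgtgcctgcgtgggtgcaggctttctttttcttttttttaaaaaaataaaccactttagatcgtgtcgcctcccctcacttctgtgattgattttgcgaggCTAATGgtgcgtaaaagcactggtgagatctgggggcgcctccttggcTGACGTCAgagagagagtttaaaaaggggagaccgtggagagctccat
Chga promoter: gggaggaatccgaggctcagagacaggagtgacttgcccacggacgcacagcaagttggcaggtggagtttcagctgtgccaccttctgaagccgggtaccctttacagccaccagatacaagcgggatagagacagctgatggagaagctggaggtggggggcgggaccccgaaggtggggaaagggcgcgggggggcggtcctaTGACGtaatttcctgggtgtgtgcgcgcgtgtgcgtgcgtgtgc
Chgb promoter: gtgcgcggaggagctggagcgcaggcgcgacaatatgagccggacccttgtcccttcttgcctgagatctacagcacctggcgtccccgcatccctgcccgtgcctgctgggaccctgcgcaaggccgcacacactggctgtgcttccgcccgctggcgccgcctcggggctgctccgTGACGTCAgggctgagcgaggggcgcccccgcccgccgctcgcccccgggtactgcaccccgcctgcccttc

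These windows lie at chr19:52264047-52264296 (plus strand), chr16:23890845-23891094 (minus strand), chr12:102554691-102554940 (plus strand) and chr2:132781392-132781641 (plus strand). The Chgb window lies inside the deposited gene span, which begins at chr2:132781278, so it precedes the RefSeq start but not the deposited one. The full element began 48 bases before the start in Sst and 72 bases before it in Chgb, and was present in 1.55% of 32851 RefSeq promoter windows of the same length. TGACG was found in 3 of the 9 genes with an entry, Sst, Chga and Chgb, against 17.8% of all windows, and in Chga it began 44 bases before the start. GCCATCTG was found in Ins1 alone of the 9, beginning 86 bases before the start, against 1.11% of all windows. CTAATG was found in Sst alone, beginning 96 bases before the start, against 6.36% of all windows. CANNTG, which GCCATCTG contains, was found in 8 of the 9 genes against 66.2% of all windows, and TAAT, which CTAATG contains, in 5 of the 9 against 54.9%. In Ins1 CANNTG also began 188 bases before the start, and TAAT began 201, 71 and 61 bases before it. These matches describe letters only, and no binding was measured.

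Levels below are fragments per kilobase of exon per 1000000 reads (FPKM) as deposited, and read numbers were recovered from them with exon lengths. Intervals in brackets are 95% intervals and cover counting error only, since each epithelium is 1 library and has no replicate check. Library depth ran from 12876470 to 20828217 reads. In these bulk samples, fewer cells of a type and less RNA per cell cannot be told apart. Both epithelia held duct markers, the 12 listed duct genes summing to 2720 FPKM in bile duct and 673 FPKM in pancreatic duct epithelium. Both also held other cells: 20 acinar genes summed to 28100 and 60500 FPKM, 6 fibroblast genes to 1210 and 1370 FPKM, 5 endothelial genes to 443 and 736 FPKM, and 6 immune genes to 983 and 666 FPKM. In the organoids the acinar genes summed to 2.83 to 9.51 FPKM and the duct genes to 5790 to 11500 FPKM.

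The beta cell hormones were present in both epithelia and higher in pancreatic duct epithelium. Ins1 (ENSMUSG00000035804, chr19:52264323-52265456), the retroposed mouse insulin gene with 2 exons, had 7.03 FPKM (92 reads) in bile duct epithelium, 44.6 FPKM (700 reads) in pancreatic duct epithelium and 0 in all 6 organoids. Its ratio of pancreatic to bile duct epithelium was 6.34 [5.09 to 7.97]. Ins2 (ENSMUSG00000000215, chr7:142678656-142743381), the ancestral insulin gene, had 16.9 FPKM (286 reads) in bile duct epithelium, 77.6 FPKM (1573 reads) in pancreatic duct epithelium, 0.0433 FPKM (1 read) in pancreatic duct organoid 2 and 0 in the other organoids. Its epithelial ratio was 4.58 [4.04 to 5.22]. Both insulin genes were thus apart between the epithelia beyond counting error, and the epithelia did not overlap with any organoid. Iapp (ENSMUSG00000041681, chr6:142298423-142303961) encodes amylin, which beta cells store with insulin. It had 2.23 FPKM (28 reads) in bile duct epithelium and 10.6 FPKM (160 reads) in pancreatic duct epithelium, a ratio of 4.76 [3.17 to 7.39]. In organoids it had 1 read in bile duct organoid 1, 1 in pancreatic duct organoid 1, 3 in pancreatic duct organoid 2 and 0 in the other three. The Iapp gene lies within the span of Slco1a5 on the opposite strand, with 0 shared exon bases.

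Of the insulin reads, 24.3% [20.3 to 28.9, Wilson] came from Ins1 in bile duct epithelium and 30.8% [28.9 to 32.7, Wilson] in pancreatic duct epithelium. Per exon length, the ratio of Ins1 to Ins2 was 0.415 and 0.575. The Ins2 entry is longer than its main transcript: besides 734 bases in 2 main exons it holds 578 bases in 4 exons that lie 19.7 to 63.7 kb upstream, so its FPKM is divided by a longer length than the main exons have. The insulin genes are related in sequence, and 7 of 1013 stretches of 50 bases in Ins1 (0.691%) also occur in Ins2.

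Gcg (ENSMUSG00000000394, chr2:62474530-62483650), which encodes the glucagon precursor of alpha cells and also the GLP-1 precursor of gut L cells, had the largest ratio after Ins1. It had 1.56 FPKM (30 reads) in bile duct epithelium, 9.35 FPKM (216 reads) in pancreatic duct epithelium and 0 in all 6 organoids. The epithelial ratio was 6.00 [4.08 to 9.11], an interval that overlaps those of Ins1, Ins2 and Iapp.

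The other peptide hormones differed less between the epithelia. Sst (ENSMUSG00000004366, chr16:23889581-23890844), the somatostatin gene of delta cells, had 29.9 FPKM (231 reads) in bile duct epithelium and 24.0 FPKM (222 reads) in pancreatic duct epithelium. It was 1.25 times [1.03 to 1.51] higher in bile duct, the opposite direction to insulin and glucagon. Sst had 0.854 FPKM (9 reads) in pancreatic duct organoid 2 and 0 in the other 5 organoids. Ppy (ENSMUSG00000017316, chr11:102099930-102101319), the pancreatic polypeptide gene, had 27.0 FPKM (174 reads) in bile duct epithelium, 32.7 FPKM (253 reads) in pancreatic duct epithelium and 0 in all organoids. Its ratio of 1.21 [0.995 to 1.48] included 1. Pyy (ENSMUSG00000017311, chr11:102106676-102107832), the peptide YY gene of gut L cells and of some islet cells, lies 5.36 kb from Ppy. It had 9.23 FPKM (75 reads) in bile duct epithelium, 15.1 FPKM (147 reads) in pancreatic duct epithelium and 0 in all organoids, with a ratio of 1.63 [1.23 to 2.19]. These neighbouring genes of one peptide family therefore had ratios whose intervals overlap each other, and both intervals end below those of the insulin genes, Gcg and Iapp.

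**Figure D1:**
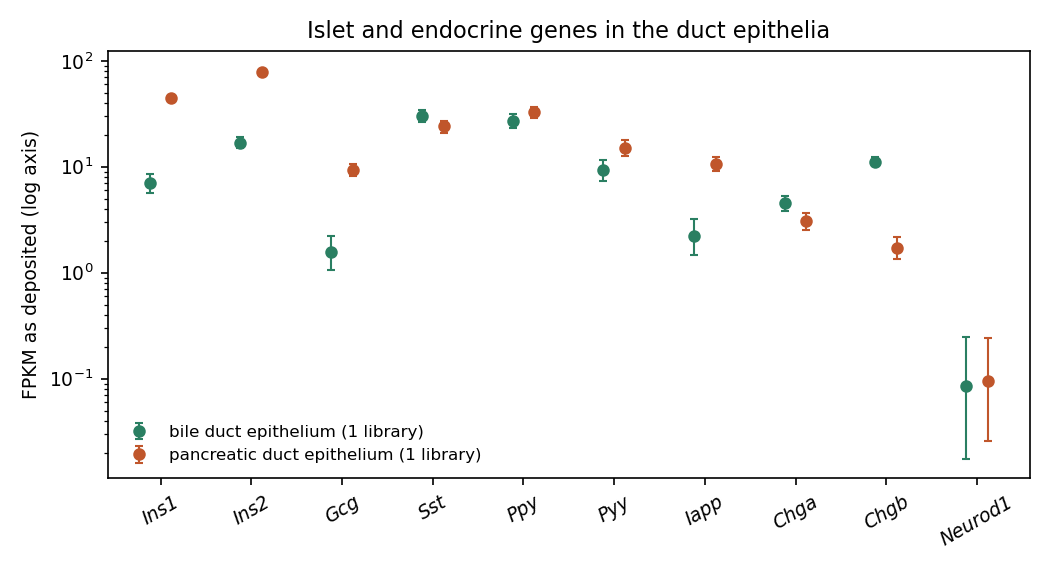
Level of each of the 10 genes in the 2 epithelia, in FPKM as deposited on a log axis, with 1 point per library and bars for the 95% counting interval. Ins1, Ins2, Gcg and Iapp sit higher in pancreatic duct epithelium, Chgb sits higher in bile duct epithelium (11.2 against 1.72 FPKM), and Neurod1 is lowest in both.

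The order of the hormones differed between the epithelia. By FPKM as deposited, the highest levels in bile duct epithelium were those of Sst and Ppy, whose intervals overlap, followed by Ins2. Chgb, Pyy and Ins1 came next with overlapping neighbours, then Chga, then Iapp and Gcg, which overlap, and Neurod1. In pancreatic duct epithelium the order was Ins2, Ins1, Ppy, Sst, Pyy, then Iapp and Gcg, which overlap, and then Chga, Chgb and Neurod1, with all other neighbours apart. Sst ranked 1632 among all genes in bile duct epithelium, and Ins2 ranked 501 in pancreatic duct epithelium. The counting intervals do not settle the place of Ins2 in bile duct epithelium, since its level is divided by its whole entry, upstream exons included. By its main exons alone, of 734 bases, Ins2 could stand higher there.

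Shares within a library do not depend on the scaling between libraries. Among the reads of the 7 hormone genes, Ins1 and Ins2 together made up 41.3% [38.1 to 44.5, Wilson] of 916 reads in bile duct epithelium and 69.5% [67.9 to 71.0, Wilson] of 3271 reads in pancreatic duct epithelium. Sst and Ppy together made up 44.2% [41.0 to 47.4] and 14.5% [13.4 to 15.8]. The alpha and beta cell products Ins1, Ins2, Iapp and Gcg made up 47.6% [44.4 to 50.8] and 81.0% [79.6 to 82.3]. The hormone mix was thus apart between the libraries beyond counting error, and by reads the intervals of the insulin pair and of Sst with Ppy overlapped in bile duct epithelium. Counted as shares of FPKM, which weights short genes more, insulin took 25.5% in bile duct epithelium and 57.1% in that of the pancreatic duct, while Sst with Ppy took 60.6% and 26.5%. These FPKM shares rest on the whole Ins2 entry, and its main exons alone could give insulin a larger share. Summed over the 7 hormones, the level was 94.0 FPKM in bile duct and 214 FPKM in pancreatic duct epithelium.

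**Figure D2:**
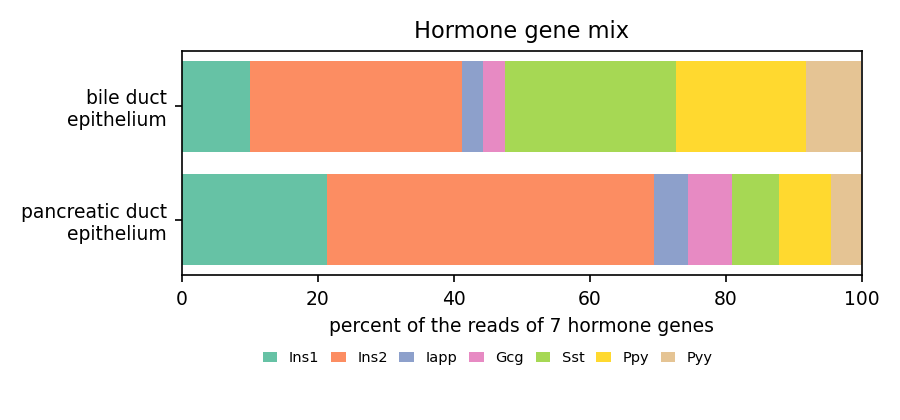
Percent of the reads of the 7 hormone genes taken by each gene, in 1 library of bile duct epithelium (916 reads) and 1 of pancreatic duct epithelium (3271 reads). Sst and Ppy take 44.2% in the bile duct library and 14.5% in the pancreatic duct library.

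Chga and Chgb went the other way from insulin. Chga (ENSMUSG00000021194, chr12:102554969-102565028), chromogranin A, a protein that drives dense core granule formation and the precursor of several peptides, had 4.51 FPKM (160 reads) in bile duct epithelium and 3.05 FPKM (130 reads) in pancreatic duct epithelium. It was 1.48 times [1.16 to 1.88] higher in bile duct. Chgb (ENSMUSG00000027350, chr2:132781278-132795079), chromogranin B, its granule partner, had 11.2 FPKM (395 reads) in bile duct epithelium and 1.72 FPKM (73 reads) in pancreatic duct epithelium, and was 6.49 times [5.05 to 8.46] higher in bile duct. In bile duct epithelium Chgb was higher than Chga, and in pancreatic duct epithelium it was lower, with intervals apart in each. In organoids Chga had 2 reads in bile duct organoid 1, 6 in pancreatic duct organoid 2, 2 in pancreatic duct organoid 3 and 0 in the others. Chgb had 1, 2 and 2 reads in bile duct organoids 1, 2 and 3, 8 reads in pancreatic duct organoid 2 and 0 in pancreatic duct organoids 1 and 3.

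Neurod1 (ENSMUSG00000034701, chr2:79452521-79456751), a basic helix-loop-helix factor needed for islet endocrine cells and for insulin transcription, was close to the limit of detection. It had 0.0854 FPKM (3 reads) in bile duct epithelium, 0.0948 FPKM (4 reads) in pancreatic duct epithelium and 0 in all 6 organoids. The ratio of 1.11 [0.188 to 7.58] spans both directions. Its entry shares 201 exon bases with Cerkl on the same strand and 154 with Gm26755 on the opposite strand, so these few reads cannot be assigned to Neurod1 with certainty.

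**Figure D3:**
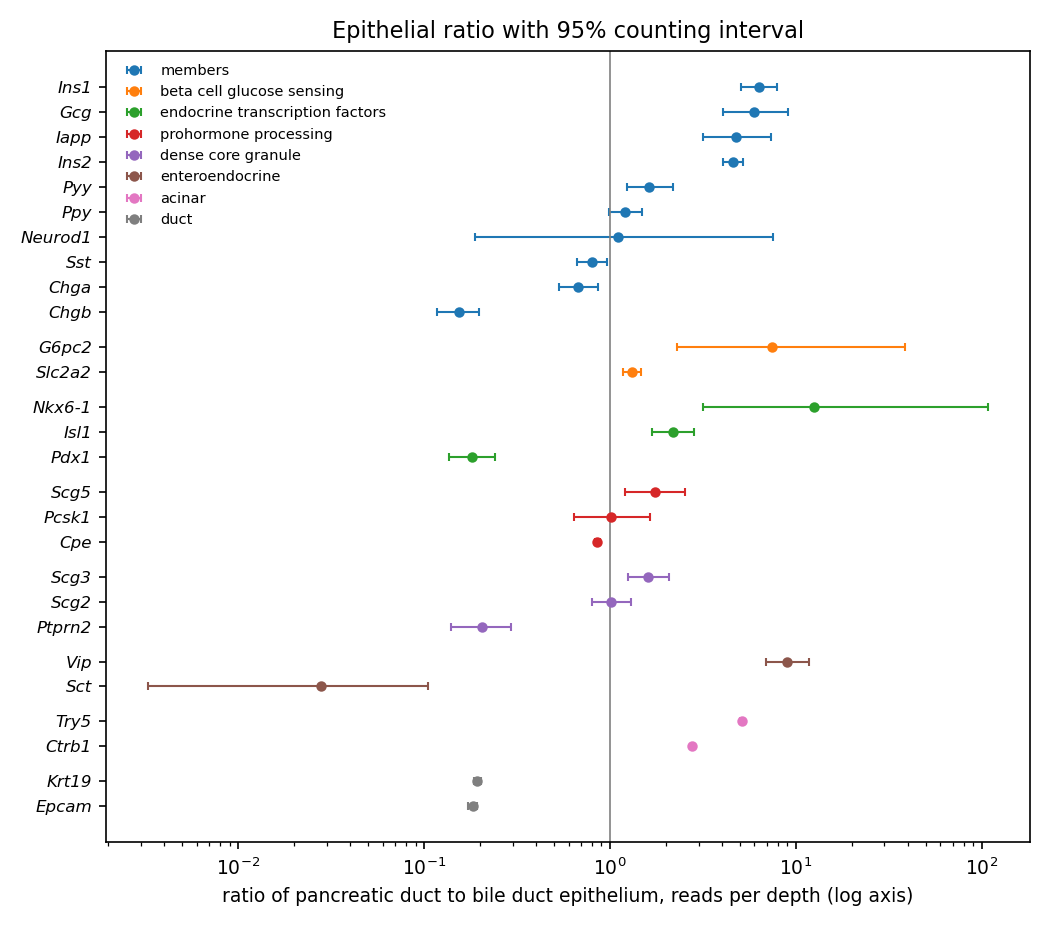
Ratio of pancreatic duct to bile duct epithelium in reads per depth (log axis) for the 10 genes, labelled members, and for genes of 7 other lists, with bars for the 95% counting interval. Ins1, Gcg, Iapp and Ins2 lie at 4.58 or above, Chgb lies at 0.154, and the vertical line marks equal levels.

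To set these genes against the rest of the table, values were scaled between libraries, and a gene was counted where log2(scaled FPKM + 1) differed by at least 1, that is 2-fold, with at least 1 FPKM in either epithelium. No test was run, since each side is 1 library with no replicate spread of its own. Ins1, Ins2, Gcg and Iapp, 4 of the 9 genes that passed the filter, were higher in pancreatic duct epithelium by this rule, against 684 of 15354 genes (4.45%) in the table. Chgb, 1 of the 9, was higher in bile duct epithelium, against 1370 genes (8.92%, and 13.4% in either direction). All 9 had at least 1 FPKM in both epithelia, and Neurod1 did not pass the filter. Their median log2 difference (bile duct minus pancreatic duct) was -0.67, and that of all genes tested was -0.03. The single log2 differences were -2.53 for Ins1, -2.15 for Ins2, -2.06 for Gcg, -1.89 for Iapp, -0.67 for Pyy and -0.28 for Ppy. They were 0.29 for Sst, 0.44 for Chga and 2.18 for Chgb.

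Genes that process hormones were closer between the epithelia than insulin was. Of the list for prohormone processing, 5 genes were tested and 0 were 2-fold apart between the epithelia, with ratios from 0.649 for Qpct to 1.74 for Scg5. Cpe, carboxypeptidase E, which trims prohormones but is also made by neurons and stromal cells, had 271 FPKM in bile duct and 232 FPKM in pancreatic duct epithelium. Pcsk1, the convertase of proinsulin, had 0.485 and 0.496 FPKM (35 and 43 reads), a ratio of 1.02 [0.640 to 1.65]. Pcsk2, the convertase of proglucagon in alpha cells, had 0.295 and 0.229 FPKM (30 and 28 reads). Scg5, the helper protein of Pcsk2, had 2.23 and 3.88 FPKM [1.21 to 2.54 for its ratio]. The convertase levels of the epithelia were therefore not distinguishable at this depth, while insulin and glucagon were apart.

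Of the dense core granule list, 8 genes were tested and 0 were 2-fold apart. Scg2, secretogranin II, had 3.89 and 3.96 FPKM, a ratio of 1.02 [0.799 to 1.30], and Scg3, secretogranin III, had 2.67 and 4.30 FPKM, a ratio of 1.61 [1.25 to 2.09]. Ptprn2, a granule membrane phosphatase, was 4.86 times [3.39 to 7.13] higher in bile duct epithelium by its reads, at 1.39 against 0.286 FPKM, so it missed the 2-fold rule only on the scale with 1 FPKM added. Slc30a8, the zinc transporter of insulin granules, had 2 and 3 reads.

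Of the genes of beta cell glucose sensing, G6pc2, the islet glucose-6-phosphatase, had 0.118 FPKM (3 reads) in bile duct and 0.885 FPKM (27 reads) in pancreatic duct epithelium, a ratio of 7.50 [2.31 to 38.6] whose interval holds that of Ins2. Slc2a2, the glucose transporter of mouse beta cells, liver and gut, had 6.77 and 8.89 FPKM, a ratio of 1.31 [1.17 to 1.47]. Abcc8 and Kcnj11, the subunits of the beta cell ATP-sensitive potassium channel, had ratios of 0.697 [0.449 to 1.08] and 0.795 [0.416 to 1.52]. Of this list 5 genes were tested, and with 1 FPKM added 1 of them was 2-fold apart, Trpm5, a cation channel of beta cells and of tuft cells, at 2.46 FPKM in bile duct epithelium and 0.0405 FPKM in that of the pancreatic duct. Cacna1d, a calcium channel subunit, had 1.20 and 0.525 FPKM, which is 2.29 times higher in bile duct as deposited, and missed the rule only through the 1 FPKM added.

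Of the endocrine transcription factors, 5 were tested and 1 was 2-fold apart with 1 FPKM added. This was Pdx1, a factor of beta cells and of the duodenal epithelium, with 10.2 FPKM in bile duct and 1.86 FPKM in pancreatic duct epithelium, 5.50 times [4.16 to 7.36] higher in bile duct and so opposite to insulin. Nkx6-1, a beta cell factor, had 2 and 30 reads, a ratio of 12.5 [3.17 to 108], and Isl1, a factor of islet cells and neurons, had 1.65 and 3.60 FPKM, a ratio of 2.18 [1.69 to 2.84] that missed the rule only on the scale with 1 FPKM added (log2 difference -0.83). Mafa, the insulin activator of mature beta cells, had 7 and 4 reads. Of the list for alpha, delta and PP cells, 11 genes were tested, of which 6 were higher in bile duct epithelium and 0 lower. Among these 6, Ffar4 had 2.73 and 0.186 FPKM and Aqp3 had 1.95 and 0.141 FPKM, and both are also made by cells outside islets.

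Markers of other tissues moved between the same libraries. The 20 acinar genes, which belong to the tissue around islets, took 6.96% of all FPKM in bile duct epithelium and 15.5% in that of the pancreatic duct, and 8 of 19 tested were higher in pancreatic duct and 0 in bile duct epithelium. Their ratios ranged up to 5.11 for the trypsin gene Try5, and Ctrb1, chymotrypsinogen, stood at 2.75. The 12 markers of intestinal absorptive cells summed to 705 FPKM in bile duct and 36.8 FPKM in pancreatic duct epithelium, and 12 of 12 were higher in bile duct. Of the enteroendocrine list, 7 genes were tested, 3 were higher in pancreatic duct epithelium and 1 was higher in bile duct epithelium, with a median log2 difference of -0.60 (bile duct minus pancreatic duct). The 1 was Sct, the secretin gene of duodenal S cells, which had 7.22 FPKM (60 reads) in bile duct and 0.201 FPKM (2 reads) in pancreatic duct epithelium. The 3 were Vip, a neuropeptide gene, with 1.42 and 12.7 FPKM, Gfra3, a receptor subunit also made by neurons, with 8.11 and 23.9 FPKM, and Cartpt, a neuropeptide gene, with 1.16 and 4.07 FPKM. Nerve and Schwann cell genes summed to 76.0 and 123 FPKM, and 4 of 11 tested were higher in pancreatic duct and 0 in bile duct epithelium. In bile duct epithelium 11 of the 12 duct genes were higher and 0 were lower, with a median log2 difference of 1.86, and Krt8, Epcam and Krt19 were 6.18, 5.48 and 5.16 times higher in bile duct, beside 6.49 times for Chgb. Of 5 endothelial and 6 immune genes, 1 each was higher in pancreatic duct epithelium and 0 in bile duct epithelium. Acinar, duct, gut and nerve genes thus moved beside the insulin, Chga, Chgb and Sst values, and their part in those results was not tested.

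In organoids the hormone genes were at or near 0. Counted over the 10 genes, there were 1474 reads in bile duct epithelium, or 114 per 1000000 reads [109 to 120], and 3478 in pancreatic duct epithelium, or 225 per 1000000 reads [218 to 233]. The bile duct organoids 1, 2 and 3 had 4, 2 and 2 reads, and the pancreatic duct organoids 1, 2 and 3 had 1, 27 and 2 reads. Ins1, Gcg, Ppy, Pyy and Neurod1 had 0 reads in every organoid. As a one-sided 95% limit, a count of 0 allows up to 3 reads, that is 0.142 to 0.192 FPKM for Ins1, 0.0964 to 0.130 for Gcg, 0.288 to 0.389 for Ppy, 0.228 to 0.309 for Pyy and 0.0528 to 0.0714 for Neurod1.

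With that floor of 3 reads taken in each organoid, Ins1 was at least 42.4-fold lower in bile duct organoids than in bile duct epithelium and at least 233-fold lower in pancreatic duct organoids than in pancreatic duct epithelium. For Gcg the bounds were 13.8-fold and 71.8-fold, for Ppy 80.2-fold and 84.1-fold, and for Pyy 34.6-fold and 48.8-fold. Ins2 and Sst, with 0 reads in the bile duct organoids, were at least 132-fold and at least 107-fold lower there. These bounds follow the level in the epithelium, so a larger bound does not mean a larger difference. In pancreatic duct, Ins2 gave a ratio of epithelium to pooled organoids of 5480 [982 to 217000] on its single organoid read. Without pancreatic duct organoid 2, which held that read, the value was at least 523-fold.

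Sst, Chga and Chgb kept some reads in pancreatic duct organoids, most of them in organoid 2. The ratio of pancreatic duct epithelium to pooled organoids was 85.9 [44.4 to 190] for Sst, 56.6 [27.9 to 134] for Chga, 31.8 [15.3 to 76.4] for Chgb and 139 [53.4 to 517] for Iapp. Without organoid 2, Sst was at least 73.8-fold lower, Chgb was at least 24.3-fold lower, and the ratios were 152 [41.3 to 1270] for Chga and 375 [66.4 to 14900] for Iapp. Without organoid 3 the ratios were 52.7 for Sst, 19.5 for Chgb, 85.4 for Iapp and 3360 for Ins2. In bile duct the ratios were 349 [95.1 to 2910] for Chga, 345 [146 to 1070] for Chgb and 122 [20.2 to 5000] for Iapp. The Chga and Iapp reads of bile duct organoids were all in organoid 1, and without it Chga was at least 76.2-fold and Iapp at least 13.3-fold lower. Without bile duct organoid 2 the ratios were 225 for Chga and 78.7 for Iapp.

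A gene was counted here where the 2-fold rule held and no organoid crossed to the other side of its epithelium. By this rule 9 of the 9 genes that passed the filter were lower in bile duct organoids, against 3729 of 15341 genes (24.3%), and 0 were higher, against 15.3% (39.6% in either direction). In pancreatic duct organoids 9 of 9 were lower, against 3543 of 15096 genes (23.5%), and 0 were higher, against 17.7% (41.2% in either direction). Since these 9 genes passed the filter of 1 FPKM only through the epithelium, they had to differ, and the counts are a description. On the scale with 1 FPKM added, the log2 differences (organoid minus epithelium) ran from -5.06 for Sst to -1.42 for Gcg in bile duct and from -6.40 for Ins2 to -1.45 for Chgb in pancreatic duct. With 0.1 FPKM added instead, they ran from -8.34 for Sst to -4.16 for Gcg in bile duct and from -9.53 for Ins2 to -3.68 for Chgb in pancreatic duct, so their size depends on the value added. Acinar, fibroblast and endothelial markers were lower in organoids as well, with 19 of 19, 6 of 6 and 5 of 5 tested genes in each organ, and their part in the result was not tested. The enteroendocrine list was lower in 7 of 7 and 6 of 6 tested genes. Apart from the acinar gene Cela1, the tested genes of these lists also passed the filter only through the epithelium, so their counts are a description too.

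**Figure D4:**
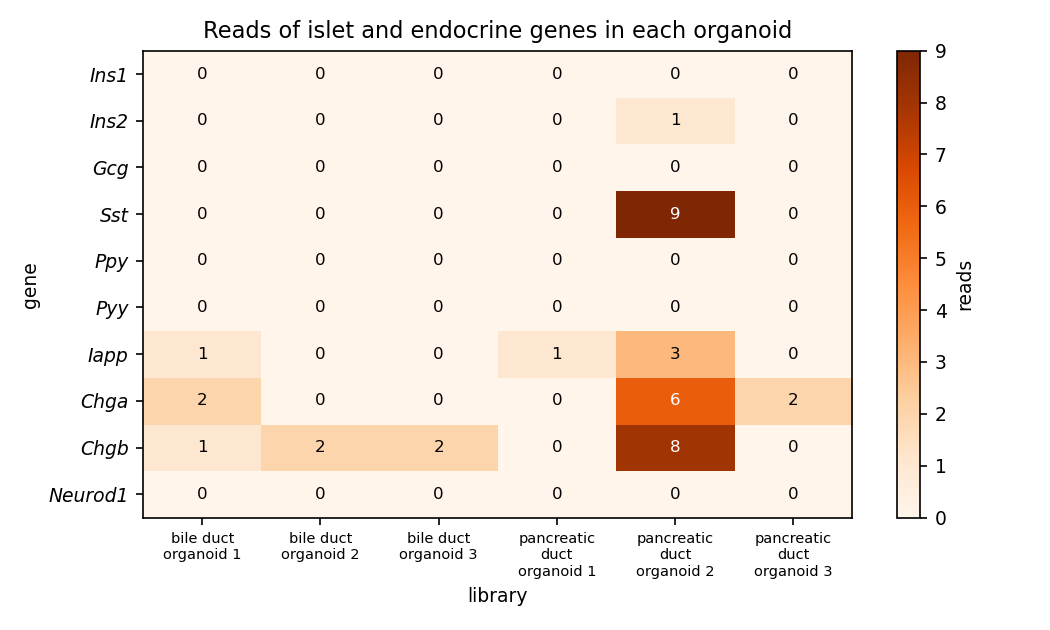
Reads of each of the 10 genes in the 3 bile duct and 3 pancreatic duct organoids, printed in each cell and shaded from 0 to 9. Pancreatic duct organoid 2 holds 27 of the 38 reads, and 5 genes are at 0 throughout.

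These genes were too low for the test between the organoid groups, and whether they differ there was not settled. Limma called 0 of 12093 genes (0%) at a Benjamini-Hochberg adjusted p under 0.05, while 304 had an unadjusted p under 0.05, and the smallest adjusted p was 0.919. None of the 10 genes reached the filter of 1 FPKM in 3 organoids. Without pancreatic duct organoid 3, limma called 11 of 11843 genes, and none of the 10 was among those tested. Ins2 and Sst had reads in 1 organoid only, so an exact permutation test could give no p below 1 for them. For Iapp, Chga and Chgb a two-sided exact permutation test of mean scaled FPKM over the 6 organoids gave p = 0.4, p = 0.7 and p = 1, each 1 after adjustment over the 5 genes with a read. Since 0.1 is the smallest p of 3 against 3, none of these tests could pass 0.05.

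Pancreatic duct organoid 2 stood apart from the other organoids in the reads of these genes, as was noticed after its values were seen. It held 71.1% of the 38 reads of these genes in organoids with 16.0% of all organoid reads, which came to 1.53 per 1000000 reads [1.01 to 2.23] against 0.0649 to 0.225 in the other 5. It was the highest of the 6 organoids for 5 of the 5 genes with a read. Over the whole table it was the highest for 4823 of 26795 genes with a read (18%). The same library was highest for 7 of 15 genes of the dense core granule list (46.7%), for 4 of 8 beta cell glucose sensing genes (50.0%), and for 5 of 18 endocrine transcription factors (27.8%), as many as pancreatic duct organoid 3. Among lists of other cells it was highest for 2 of 5 endothelial, 2 of 6 immune, 4 of 12 duct, 4 of 16 nerve, 1 of 10 acinar, 1 of 10 intestinal and 0 of 5 fibroblast genes with a read. Acinar genes summed to 4.52 FPKM in it, within the range of the other organoids, and nerve genes to 12.4 FPKM against 3.31 to 11.6 FPKM. Between whole libraries, bile duct organoid 1 was the closest to pancreatic duct organoid 2, with a chi-square per degree of freedom of 37.4. Its other pairs gave 61.6 to 115.

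Genes of the granule list did not all move the same way in pancreatic duct organoid 2. Ptprn, a phosphatase-like protein of the granule membrane, had 7.93, 3.53 and 1.86 FPKM in the bile duct series, in the order of organoids 1, 2 and 3, and 2.47, 27.9 and 3.66 FPKM in the pancreatic duct series. These levels exceed the 0.676 and 0.822 FPKM of the bile duct and pancreatic duct epithelia in all 6 organoids. For Nnat, neuronatin, the values were 6.66, 6.26 and 6.39 FPKM in the bile duct series and 2.91, 18.1 and 4.36 FPKM in the pancreatic duct series. Vgf, the precursor of neuroendocrine peptides, had 2.16 FPKM in pancreatic duct organoid 2 and 0.201 to 0.371 FPKM in the others. Syt13, a synaptotagmin, had 2.00, 4.08 and 0 FPKM in pancreatic duct organoids 1, 2 and 3 and at most 0.0299 FPKM in bile duct organoids. Other genes of the list were lowest there, as picked out after their values were seen. Rab27a, a GTPase of granule transport, had 0.879 FPKM in pancreatic duct organoid 2 and 1.53 to 5.05 FPKM in the others. The vesicular monoamine transporter genes Slc18a1 and Slc18a2 had 0.368 and 0.673 FPKM there, against 0.520 to 1.08 and 0.751 to 1.26 FPKM. The beta cell factor Nkx6-1 had 0.745, 3.01 and 0.0765 FPKM in pancreatic duct organoids 1, 2 and 3 and at most 0.107 FPKM in bile duct organoids. For Cpe the values were 55.1, 20.5 and 13.7 FPKM in the bile duct series and 35.0, 92.8 and 14.6 FPKM in the pancreatic duct series, all below the epithelia. Between the organoid groups none of Ptprn, Nnat and Cpe differed beyond the spread (limma, Benjamini-Hochberg adjusted p = 1 for each), and Vgf, Syt13 and Nkx6-1 did not pass the filter.

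**Figure D5:**
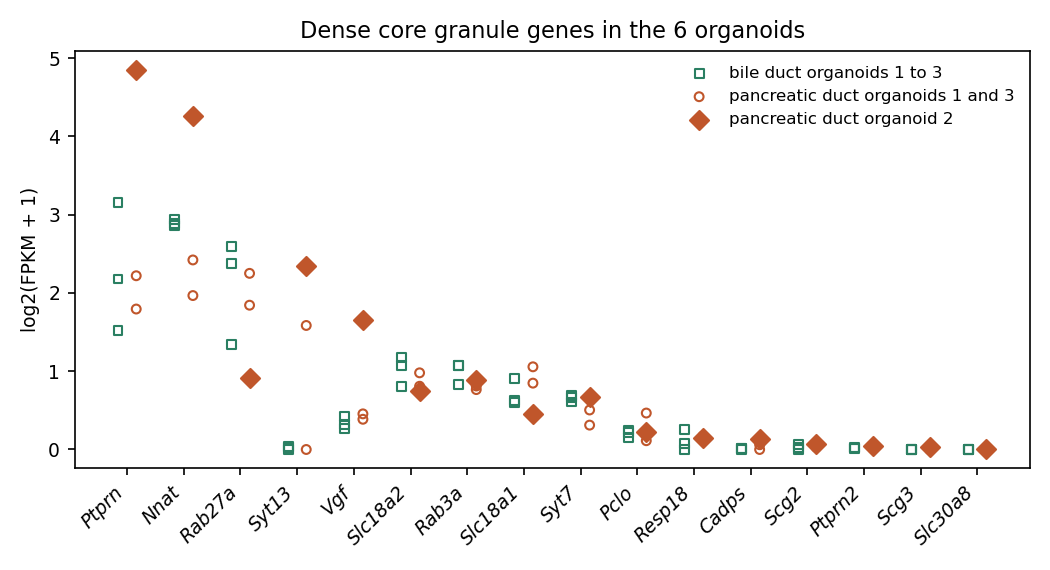
Level of the 16 dense core granule genes in the 6 organoids as log2(FPKM + 1), with 1 symbol per library. The filled diamond, pancreatic duct organoid 2, is highest for Ptprn, Nnat, Syt13 and Vgf and lowest for Rab27a, while Scg3 and Slc30a8 are near 0 in all 6.

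Pdx1 was present in all 6 organoids, with insulin at 0 reads in 5 of them. Its values were 12.2, 27.4 and 20.8 FPKM for bile duct organoids 1, 2 and 3 and 20.5, 13.9 and 19.1 FPKM for those of the pancreatic duct, against 10.2 and 1.86 FPKM in the epithelia. Hhex, a factor of delta cells that ducts also make, had 8.81 to 16.1 FPKM in the organoids against 4.90 and 6.61 FPKM in the epithelia, while Sst was seen in 1 organoid only. Isl1, with 3.60 FPKM at its highest in an epithelium, was at most 0.0961 FPKM in organoids. Gc, a vitamin D binding protein made by alpha cells and liver, had 9.49 to 232 FPKM in organoids, highest in pancreatic duct organoid 2, against 3.16 and 0.842 FPKM in the epithelia. Gcg had 0 reads in those organoids.

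Genes with a pattern like that of the hormones were sought over the 8 libraries, among protein-coding genes with at least 10 FPKM in an epithelium, by Pearson correlation of log2(scaled FPKM + 1). The most like Ins2 were Prss3, Fhl5, Heyl, Col8a1 and Klhl4, with r between 0.9998 and 1. Prss3, a trypsinogen, had 47.0 FPKM in bile duct and 370 FPKM in pancreatic duct epithelium and was listed at 0 in organoids. Ins1 ranked 71 of 5262 candidates, and 154 had r above 0.99. The most like Chga were Tgtp2, Jchain, Ces1d, H2-Eb1 and Spon2, with r of 0.9991 to 0.9997, and 190 of 5263 candidates had r above 0.99. For Neurod1 these were Cela3b, Kdr, Fmo1, Amy2a5 and Ramp2, which rests on 3 and 4 reads. These correlations describe 8 libraries of which 6 are near 0. For Neurod1, 420 candidates had r above 0.99.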

How the data were processed

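Polyadenylated RNA of 8 samples was sequenced, and per the labels' protocols the libraries were made by NEBNext Ultra. The values are FPKM, deposited by the authors in 1 table with 1 column per library. The unit was read from the values. The submitters' processing notes list HISAT2 2.1.0, Bowtie2 2.2.3, TopHat2 and HTSeq 0.6.0. Their roles, the genome build, filters and strand setting are not given in the sources used here. Gene positions were copied from the deposited table and are in GRCm38 as judged by the gene positions of GENCODE M21.

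Groups and replicate numbers came from the sample labels. Reads, or read pairs, were recovered as FPKM times exon length divided by the value of 1 read per library. Exons were taken from GENCODE M21 and limited to the deposited gene span. Within 0.05 of a read, 28929 of 31137 genes (92.9%) were whole in all 8 libraries, all 10 genes of the report included. Depth limits precision as given by the intervals (Wilson for shares, exact conditional for ratios, exact Poisson for levels). PCR reads without molecular identifiers are not independent molecules.

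For comparisons across all genes, FPKM were scaled by an unweighted trimmed mean of log ratios (30% trimmed by log ratio and 5% by mean level, at each end) and taken as log2(FPKM + 1), which understates the change of low genes. Comparisons with an epithelium, 1 library each, had no test. Organoids were tested with limma (trend, Benjamini-Hochberg, threshold 0.05) where 3 or more organoids reached 1 FPKM, after a check on simulated data, and single genes by exact permutation. Closest organoid libraries differed by more than sampling noise (chi-square per degree of freedom 17.8). Alternatives covered scaling, pseudocount, filter, replicate block, hormone shares and each organoid left out.

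The members and gene lists were chosen with earlier results of these data known. Named were all 10 genes and, of each list, up to 4 with the widest epithelial difference plus the highest in an organoid. Some genes that met this rule are not reported here. Others were named for their role after their values were seen (Pcsk1, Pcsk2, Scg2, Slc30a8, G6pc2, Abcc8, Kcnj11, Nkx6-1, Mafa, Vgf, Syt13, Nnat, Rab27a, Slc18a1, Slc18a2). Lists covered prohormone processing, dense core granule, endocrine transcription factors, beta cell glucose sensing, alpha, delta and PP cells, enteroendocrine, acinar, duct, nerve and Schwann, intestinal absorptive, fibroblast, endothelium and immune genes. In 26 rows of the table the symbol had become a date. Tools were limma 3.58.1 in R 4.3.3, and in Python 3.11.15 numpy 2.4.6, pandas 2.3.3, scipy 1.17.1 and matplotlib 3.10.9.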

Additional observations from a re-analysis of the deposited data

Results flagged for a closer look

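In 4 genes of the lists, every organoid lay below the epithelium in bile duct and above it in pancreatic duct, as log2(scaled FPKM + 1), organoid minus epithelium. Aqp3 stood at -1.15 in the bile duct and 0.50 in the pancreatic duct, Ffar4 at -0.76 and 1.11, Trpm5 at -1.74 and 0.16, and Cftr at -0.82 and 1.14. Whether the organs differ in this was not tested. All 4 were higher in bile duct than in pancreatic duct epithelium, Trpm5 at 2.46 against 0.0405 FPKM. None of the islet and endocrine hormone genes showed opposite directions.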

How the results depend on the processing

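With a filter of 10 FPKM in place of 1 FPKM, fewer genes were tested, and the genes at least 2-fold apart numbered 874 in place of 2054 between the epithelia, 2998 in place of 6071 from bile duct epithelium to organoids and 3185 in place of 6220 for the pancreatic duct. Of the hormone and endocrine genes, 4 then passed the filter in bile duct, and 4 (in place of 9) were lower in organoids. Insulin took 25.5% of hormone FPKM in bile duct epithelium and 57.1% in that of the pancreatic duct, and without Iapp and Pyy 46.5% and 76.7% of reads, so the order of the epithelia was kept. Leaving out each organoid in turn gave 0 to 11 limma calls between the organoid groups, the 11 without pancreatic duct organoid 3, 1 of them higher in bile duct and 10 in pancreatic duct. The other comparisons kept their counts within 1.5 times. None of the log2 differences of the 9 hormone and endocrine genes that passed the filter of 1 FPKM changed sign under the alternatives run. Scaling moved the median of all genes from 0.05 in each organ to 0.17 and 0.19 with FPKM as deposited and to -0.1 and -0.08 with median-of-ratios factors, in bile duct and pancreatic duct. The log2 differences from epithelium to organoid were at least 1 in size for these 9 genes, and -0.13 and -0.14 for Neurod1.

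Replicate numbers were not taken as pairs. The deviations of same-numbered organoids correlated at -0.103, -0.44 and 0.483. These values cannot settle whether pairs exist, since deviations within a group of 3 are not independent. With the replicate number as a block, limma called 0 genes, with 286 at an unadjusted p under 0.05. A sign-flip permutation test of single genes over 3 pairs cannot give p below 0.25, which leaves it uninformative here. The ratios without each organoid were chosen after seeing the data. Depth limits all organoid values, most of which rest on 0 to 9 reads.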
